A study of Mus musculus with 6 samples.

Results

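The genes described here are 47 components of T cell receptor signaling and of the calcium-NFAT branch that it feeds. They were chosen by name as a gene module, with earlier results of these data known. Of these 47 genes, 46 had at least 10 reads summed over the 6 samples and entered the test. In all, 11877 of the 47643 identifiers in the count table did so. The exception was *Trat1*, a TCR-associated transmembrane adaptor, which had 7 reads in all. The members were sorted by role into the receptor with its CD3 chains and coreceptor, surface partners, kinases, adaptors and scaffolds, lipid and GTPase enzymes, negative regulators, calcium entry with calcineurin, and the NFAT factors. The question was how the transcripts of this machinery stood in T cells that were re-activated under blockade of PD1 or of Lag3.

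All 6 samples came from the spleens of Tg4 *Nr4a3*-Tocky Tiger mice and consisted of CD4+ T cells. These mice carry a transgenic T cell receptor for a myelin basic protein peptide, an *Il10*-GFP reporter, and a Timer protein under *Nr4a3* control whose blue form matures to red. Every mouse first received 80 μg of the [4Y] MBP peptide. After 24 h, each was given 800 μg of an isotype antibody pool, anti-PD1, or anti-Lag3, and 30 min later 8 μg of peptide. At 4 h after the second peptide, *Nr4a3*-Blue+Red+ responders were sorted, with 2 samples in each of the isotype, anti-PD1 and anti-Lag3 groups. Mice of both sexes were used, and ages are not given in the sources used here. Because the gate was set on an *Nr4a3* reporter, which responds to the same pathway, the samples hold cells that had already signaled and not all CD4+ T cells. The paper reports that such responders were more frequent with anti-PD1, with anti-Lag3 intermediate. The gate thus took different shares of CD4+ T cells in the 3 groups. Its part in any group difference was not tested.

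A T cell receptor has no enzyme of its own. When it binds peptide on MHC, the kinase *Lck*, brought by the CD4 coreceptor, phosphorylates the CD3 chains, *Zap70* docks there, and *Zap70* phosphorylates the adaptors *Lat* and *Lcp2*, on which phospholipase C gamma 1 is assembled. That enzyme makes inositol trisphosphate, which opens calcium stores, and diacylglycerol, which activates Ras and protein kinase C theta. Calcium entry through *Orai1* activates the phosphatase calcineurin, and calcineurin lets NFAT proteins enter the nucleus. Most of these steps are run by phosphorylation and not by transcript levels, which are what was measured here.

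The libraries held 2107715 to 2648920 counts, so that 3 reads correspond to 1.11 to 1.44 CPM (counts scaled to the TMM-adjusted library size). The noncoding RNA *Gm42418* took 17.4% to 21.0% of counts and mitochondrial genes 8.54% to 9.23%. Replicates differed by more than counting noise, by a chi-square over genes that was 2.33 to 2.84 times its degrees of freedom in the 3 groups. The cells carried the markers of their label: the summed level of 7 CD4 T cell markers was 1400 to 1590 CPM in all samples. All of these markers except *Cd28* are members of the module, so this sum is not independent of it. Markers of other cells were present and moved with the groups. The summed level of 8 B cell markers was 119 and 132 CPM in isotype, 65.1 and 51.1 CPM in anti-PD1, and 82.6 and 122 CPM in anti-Lag3, with *Cd79a* at 0 everywhere. The sum of 9 macrophage and monocyte markers was 81.4 and 57.5 CPM in isotype, 23.0 and 42.1 CPM in anti-PD1, and 39.6 and 38.6 CPM in anti-Lag3. With anti-PD1, 6 of the 7 B cell markers tested and 7 of the 9 macrophage markers were lower than in isotype, and *Ighm*, *Igkc* and *C1qa* among them passed the test. The 2 CD8 T cell markers summed to 54.6 and 48.3 CPM in isotype, 34.5 and 29.8 CPM in anti-PD1, and 33.7 and 32.7 CPM in anti-Lag3. In a bulk sample, fewer cells of a type and less RNA per cell cannot be told apart.

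With anti-PD1, 3 of the 46 members passed the test against isotype, and all 3 were lower: *Fyb* and *Lcp2*, which are adaptors downstream of the receptor, and *Nfatc1*, an NFAT transcription factor. No member passed it as higher. Relative to isotype, the fitted level was 0.672 for *Fyb*, 0.664 for *Lcp2* and 0.659 for *Nfatc1*. The test was edgeR's quasi-likelihood test on the counts of all 6 samples, with p-values adjusted by the Benjamini-Hochberg method over 11877 genes and a threshold of 0.05. In the same comparison, 0.901% of all genes passed, 0.269% as lower. With anti-Lag3, none of the 46 members passed, where 0.0421% of all genes did, 0.0168% as lower. In the direct comparison of anti-PD1 with anti-Lag3, none passed either, where 0.303% of all genes did, 0.0589% as lower. DESeq2 and limma-voom also passed 0 members in those 2 comparisons.

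Promoters are shown for *Fyb* and *Lcp2*, which fell, and for the kinase *Txk*, which had the smallest p of the members that were higher. The promoter of *Nfatc1*, which also fell, is not shown. Each sequence is the stretch of 250 bases before a transcription start in RefSeq (build GRCm38.p6), on the strand of the gene. Capitals mark GGAAA or its complement TTTCC, the core letters of the site that NFAT proteins are known to bind.
Fyb, chr15:6579597-6579846, plus strand: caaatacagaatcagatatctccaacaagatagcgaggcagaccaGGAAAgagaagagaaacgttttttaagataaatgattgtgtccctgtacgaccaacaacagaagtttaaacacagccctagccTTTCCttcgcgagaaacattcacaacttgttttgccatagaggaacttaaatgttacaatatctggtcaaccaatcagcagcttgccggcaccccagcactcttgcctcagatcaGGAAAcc
Lcp2, chr11:34046678-34046927, plus strand: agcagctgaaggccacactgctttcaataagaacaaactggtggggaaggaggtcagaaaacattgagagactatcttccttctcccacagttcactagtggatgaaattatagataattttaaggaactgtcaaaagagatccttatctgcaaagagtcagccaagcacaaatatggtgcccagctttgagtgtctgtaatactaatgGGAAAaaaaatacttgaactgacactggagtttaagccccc
Txk, chr5:72752778-72753027, minus strand: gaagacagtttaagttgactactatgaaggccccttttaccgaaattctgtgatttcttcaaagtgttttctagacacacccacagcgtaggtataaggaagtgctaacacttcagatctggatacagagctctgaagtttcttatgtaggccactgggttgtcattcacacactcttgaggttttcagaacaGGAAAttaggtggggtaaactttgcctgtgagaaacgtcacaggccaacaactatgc
The *Fyb* window holds 3 matches, the farthest at 205 and the nearest at 7 bases before the start, the *Lcp2* window 1 match at 41 bases and the *Txk* window 1 match at 57 bases. RefSeq gives *Txk* another start, whose window at chr5:72736603-72736852, not shown, holds 2 matches at 64 and 24 bases. These letters were common: GGAAA was found on either strand in 55.6% of 32851 promoter windows of this length, and in 67.3% of the 52 windows of the 36 members that the RefSeq table covered. The letters GGAAG, the core of ETS sites, were in 64.1% of all windows and 67.3% of member windows, and TGTGGT, a RUNX site, in 14.0% and 17.3%. A match is a run of letters and not a measured binding site. The *Fyb* window lies within the longer span of the gene in the GENCODE annotation, and the last bases of the *Lcp2* window lie within the GENCODE span of *Lcp2*.

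Across the module, anti-PD1 was read out as many small differences in both directions. Against isotype, 31 of the 46 members had a fitted log2 fold change below 0 and 15 above, where 49.3% of all genes were below 0. The median over the members was −0.08, beside 0.00 over all genes tested. At an unadjusted p under 0.05 stood 15 members, 11 lower and 4 higher, where 8.12% of all genes reached that level, 3.81% as lower and 4.3% as higher. In 18 members both anti-PD1 samples lay below both isotype samples and in 7 both lay above, where 37.4% of all genes had groups that did not overlap, 18.2% as lower and 19.2% as higher. Similar shares of the other pathway genes, given below, reached these levels. For 38 members the 95% interval of the log2 fold change lay within 1 of 0, and for 15 within 0.5. For members that did not pass, differences as large as their interval allows remain possible. The intervals of the rest reached beyond 1, as for *Tec* at −1.69 to 4.02.

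**Figure D1:**
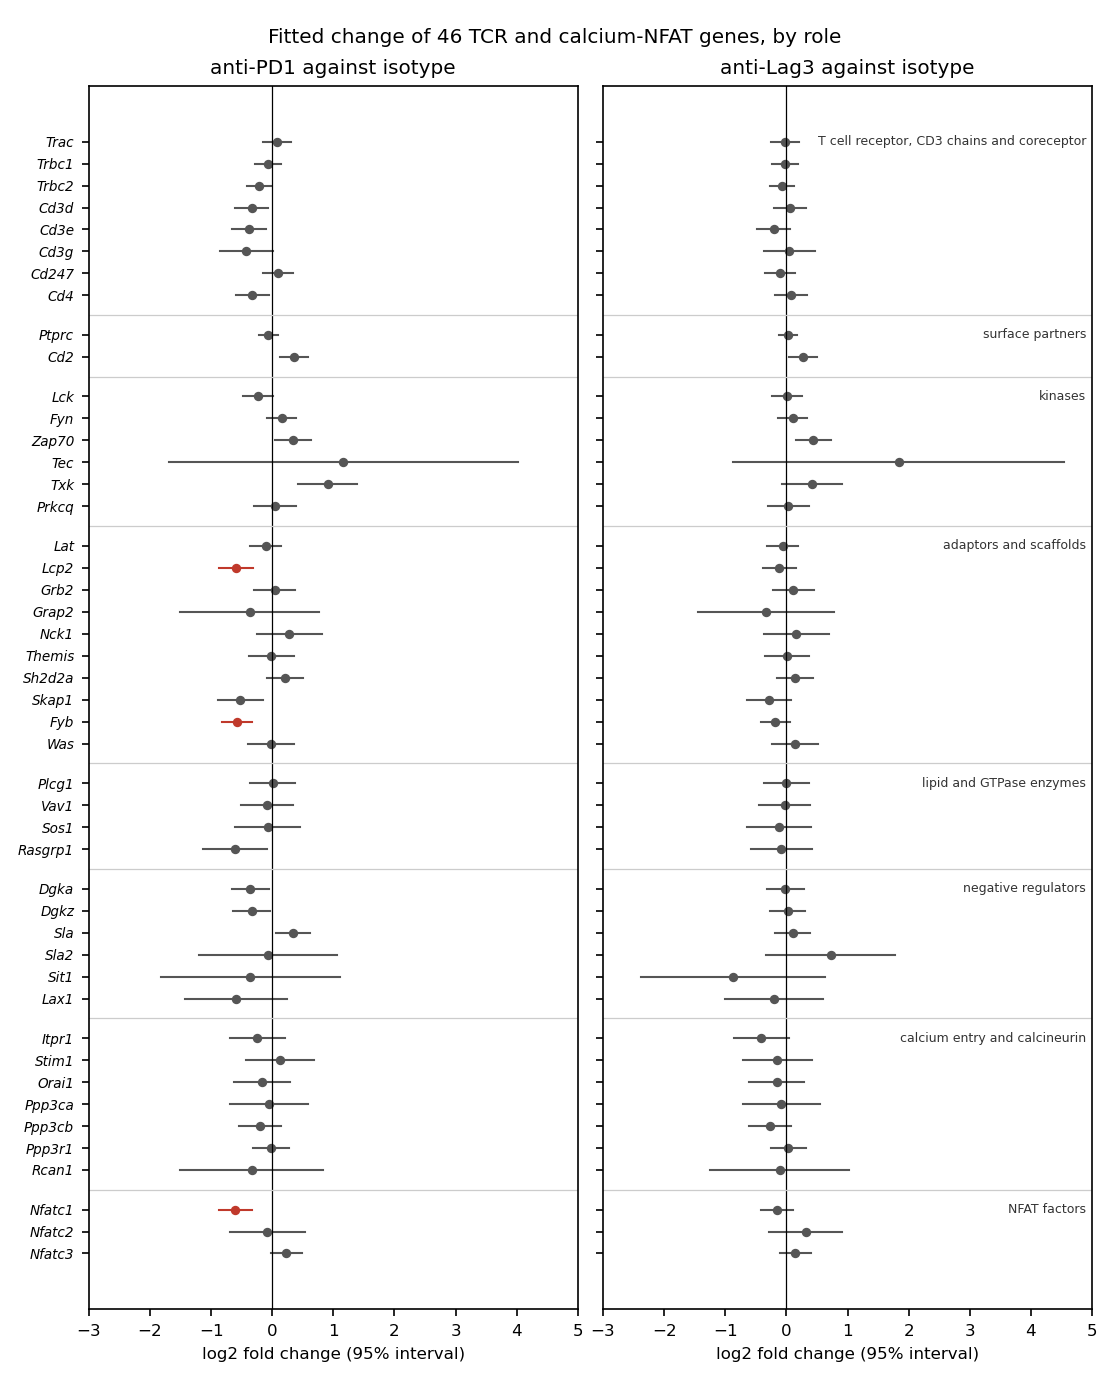
The horizontal axis of each panel is the fitted log2 fold change of a gene with its 95% interval, for anti-PD1 against isotype on the left and anti-Lag3 against isotype on the right, and the 46 members are listed by role. Red marks adjusted p under 0.05: *Lcp2*, *Fyb* and *Nfatc1* on the left, at −0.59, −0.57 and −0.60, and no gene on the right.

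The receptor itself was read in 8 members. With anti-PD1 against isotype, 6 were below 0, the median was −0.27, 4 had an unadjusted p under 0.05, and none passed edgeR's test. The CD3 chains are the signaling tails of the complex. Fitted changes were below 0 for *Cd3d*, *Cd3e* and *Cd3g* and above 0 for *Cd247*, and the chains were not tested against each other. *Cd3d* was at 202 and 245 CPM in isotype, 183 and 172 CPM in anti-PD1, and 261 and 205 CPM in anti-Lag3. *Cd3e* was at 162 and 193 CPM in isotype, 143 and 131 CPM in anti-PD1, and 160 and 148 CPM in anti-Lag3. For both chains the anti-PD1 samples lay below all 4 others. *Cd3g*, at 46.7 and 59.2 CPM in isotype, was at 42.6 and 36.8 CPM in anti-PD1 and 58.6 and 51.3 CPM in anti-Lag3, again with both anti-PD1 samples below all 4 others. The log2 fold change of anti-PD1 against isotype was −0.34 (SE 0.13, adjusted p = 0.402) for *Cd3d*, −0.38 (SE 0.14, adjusted p = 0.296) for *Cd3e* and −0.42 (SE 0.21, adjusted p = 0.634) for *Cd3g*, by edgeR's quasi-likelihood test.

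The zeta chain *Cd247*, which carries most of the phosphorylation motifs of the complex, differed from the other chains in its order. It was at 216 and 243 CPM in isotype, 256 and 235 CPM in anti-PD1, and 228 and 199 CPM in anti-Lag3. The anti-PD1 samples overlapped those of isotype, and the log2 fold change was 0.09 (SE 0.12, adjusted p = 0.947). Of all reads on the 4 CD3 chain genes, *Cd247* took 34.5% and 32.8% in isotype, 41.0% and 40.9% in anti-PD1, and 32.2% and 33.0% in anti-Lag3. The 95% Wilson intervals of the anti-PD1 samples, 38.3% to 43.7% and 38.4% to 43.5%, lay above those of the other 4 samples, the highest of which reached 37.1%. Such intervals cover counting error only, this share was chosen after its values were seen, and an exact permutation test of 2 against 2 samples cannot give a two-sided p under 0.333. The *Cd247* gene overlaps *Pou2f1* on the other strand, which had 653 reads beside 3248 for *Cd247*, and whether counting used strand is not stated.

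The coreceptor *Cd4* was at 174 and 179 CPM in isotype, 131 and 150 CPM in anti-PD1, and 190 and 181 CPM in anti-Lag3. All 3 groups were separate, with anti-PD1 lowest. Its log2 fold change was −0.32 (SE 0.13, adjusted p = 0.454) with anti-PD1 against isotype and −0.39 (SE 0.13, adjusted p = 0.385) against anti-Lag3. The constant region genes count transgenic and endogenous receptor chains together. *Trac*, of the alpha chain, was at 359 and 364 CPM in isotype, 341 and 419 CPM in anti-PD1, and 332 and 378 CPM in anti-Lag3, with all groups overlapping. *Trbc2*, of the beta chain, was at 647 and 749 CPM in isotype, 575 and 629 CPM in anti-PD1, and 689 and 647 CPM in anti-Lag3, and its log2 fold change with anti-PD1 was −0.21 (SE 0.10, adjusted p = 0.540). *Trbc1* ran from 381 to 435 CPM over all samples. The 2 beta chain genes are near-identical copies, so the split of reads between them is uncertain.

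**Figure D2:**
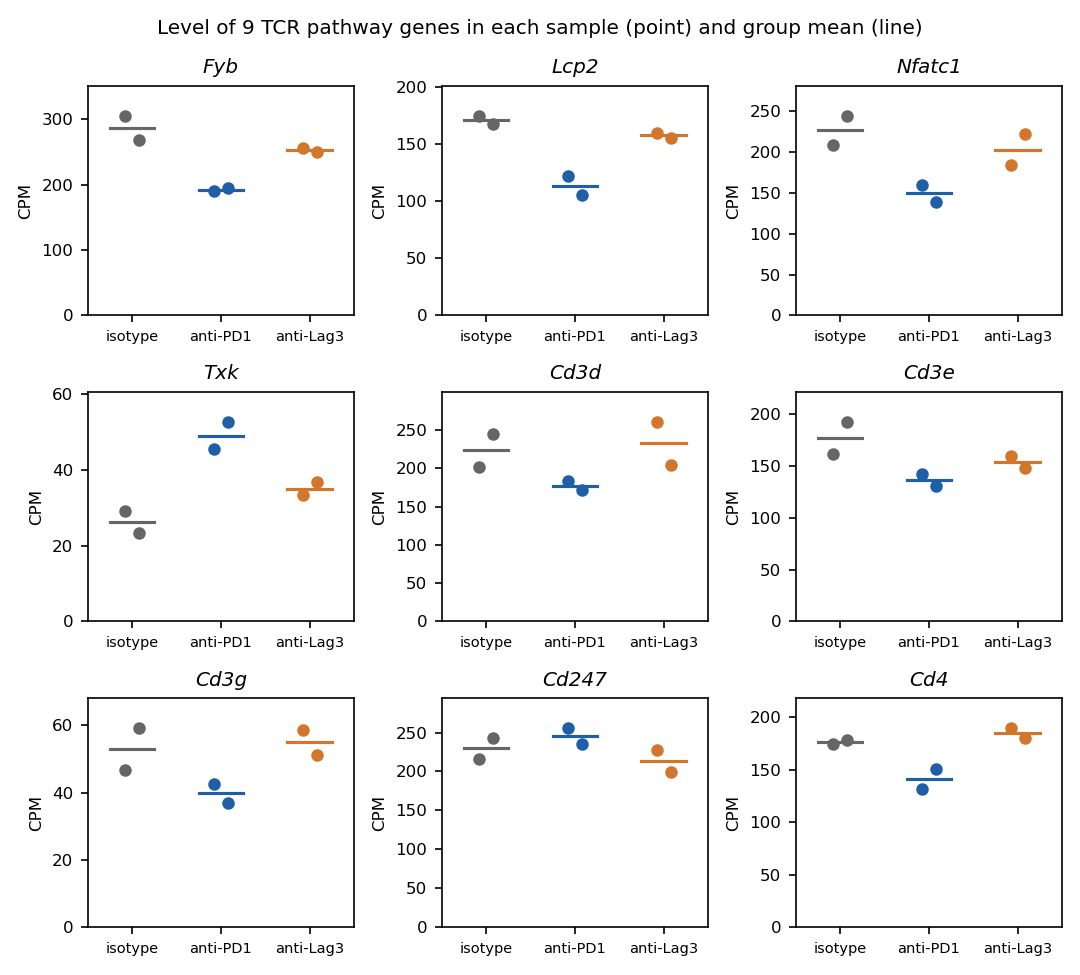
Each panel shows 1 gene, with a point for each sample in CPM and a line at the mean of its 2 samples, for isotype, anti-PD1 and anti-Lag3. *Fyb*, *Lcp2* and *Nfatc1* were lowest in both anti-PD1 samples, as were *Cd3d*, *Cd3e*, *Cd3g* and *Cd4*, whereas *Txk* was highest there and the *Cd247* samples of anti-PD1 and isotype overlapped.

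Both surface partners were detected well. *Ptprc*, the phosphatase CD45 that keeps *Lck* ready, was at 2001 and 1998 CPM in isotype, 1952 and 1879 CPM in anti-PD1, and 2055 and 2021 CPM in anti-Lag3. The groups did not overlap but lay close, with a log2 fold change of −0.06 (95% interval −0.22 to 0.09) for anti-PD1 against isotype. *Cd2*, an adhesion receptor that adds to the receptor signal, was at 333 and 270 CPM in isotype, 383 and 387 CPM in anti-PD1, and 393 and 334 CPM in anti-Lag3. Both antibody groups lay above isotype. The fitted change was 0.35 on the log2 scale (SE 0.11, adjusted p = 0.185) with anti-PD1 and 0.27 (SE 0.11, adjusted p = 0.766) with anti-Lag3. With a sample left out in turn, the log2 fold change of *Cd2* with anti-PD1 ran from 0.21 to 0.51. In the other alternatives, by edgeR, DESeq2 or limma-voom, its adjusted p ran from 0.0630 to 0.534.

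Of the 6 kinases, 5 were above 0 with anti-PD1, 2 of them at an unadjusted p under 0.05, and none passed edgeR's test. With anti-Lag3 against isotype all 6 were above 0, with a median of 0.26 beside 0.25 with anti-PD1. The isotype samples are shared by these values. Between the antibodies, 3 kinases were above 0 and 3 below. *Txk*, a *Tec* family kinase that acts on phospholipase C gamma 1, was at 29.2 and 23.3 CPM in isotype, 45.5 and 52.7 CPM in anti-PD1, and 33.3 and 36.8 CPM in anti-Lag3. The groups were separate, in the order isotype, anti-Lag3, anti-PD1. Its log2 fold change was 0.91 (SE 0.24) with anti-PD1 against isotype, and its adjusted p of 0.0522 just missed the threshold in edgeR's quasi-likelihood test. Across the alternative analyses of that value, adjusted p ran from 0.0230 to 0.531. It lay under 0.05 without anti-Lag3 sample 1 (0.0230) or sample 2 (0.0253), samples that enter this comparison only through the shared estimate of spread, in the fit of the 4 compared samples alone (0.0248), with a filter of 1 read (0.0376) and with the sample number as a replicate block (0.0392). With anti-Lag3 the log2 fold change of *Txk* was 0.42 (SE 0.24, adjusted p = 0.877).

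*Zap70*, the kinase that carries the signal from the CD3 chains to the adaptors, was at 110 and 97.0 CPM in isotype, 137 and 126 CPM in anti-PD1, and 142 and 140 CPM in anti-Lag3. It was lowest in both isotype samples. For *Zap70* the log2 fold change was 0.34 (SE 0.15, adjusted p = 0.473) with anti-PD1 and 0.44 (SE 0.14, adjusted p = 0.641) with anti-Lag3, the smallest adjusted p of any member in the latter comparison. *Lck* was at 315 and 281 CPM in isotype, 237 and 272 CPM in anti-PD1, and 330 and 271 CPM in anti-Lag3. The anti-PD1 samples lay below isotype, with a log2 fold change of −0.23 (SE 0.12, adjusted p = 0.670). *Fyn*, the other Src family kinase of the receptor, and *Prkcq*, protein kinase C theta, had log2 fold changes of 0.16 and 0.04 with anti-PD1, with groups that overlapped. *Tec* had 23 reads over all samples, too few for a statement at this depth.

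The adaptors and scaffolds held 2 of the 3 members that fell. *Fyb*, known as ADAP, ties *Lcp2* to integrin activation. Its gene spans chr15:6522853-6663313 (GRCm38, plus strand). It was at 305 and 268 CPM in isotype, 190 and 195 CPM in anti-PD1, and 256 and 250 CPM in anti-Lag3. The anti-PD1 samples were lowest, and the anti-Lag3 samples lay between them and isotype without overlapping either. The log2 fold change with anti-PD1 was −0.57 (SE 0.12, adjusted p = 0.00417, edgeR's quasi-likelihood test). With anti-Lag3 it was −0.18 (SE 0.12, adjusted p = 0.900), and between the antibodies −0.39 (SE 0.12, adjusted p = 0.249).

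*Lcp2*, known as SLP-76, is the scaffold on which *Vav1*, *Nck1* and phospholipase C gamma 1 meet after *Zap70* has acted. It spans chr11:34046920-34092295 (GRCm38, plus strand). It was at 175 and 168 CPM in isotype, 122 and 105 CPM in anti-PD1, and 160 and 156 CPM in anti-Lag3. As with *Fyb*, anti-PD1 was lowest and anti-Lag3 stood between, with no overlap of any groups. The log2 fold change with anti-PD1 was −0.59 (SE 0.14, adjusted p = 0.0157). With anti-Lag3 it was −0.12 (SE 0.13, adjusted p = 0.957), and between the antibodies −0.47 (SE 0.14, adjusted p = 0.200).

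Both calls depended on single samples. When a sample was left out, the remaining sample of its group was assumed to vary like the other groups. Without isotype sample 1, anti-PD1 sample 1 or anti-PD1 sample 2, the adjusted p of *Fyb* was 0.124, 0.128 and 0.0967, and without isotype sample 2 it was 0.0159. For *Lcp2* it was 0.117 and 0.111 without isotype sample 1 or 2, and 0.0636 and 0.439 without anti-PD1 sample 1 or 2. The log2 fold change stayed below 0 in each of these fits, between −0.66 and −0.48 for *Fyb* and between −0.70 and −0.49 for *Lcp2*. By DESeq2, *Lcp2* stood at an adjusted p of 0.0501. *Lcp2* and *Fyb* are not restricted to T cells, the B cell and macrophage markers were lower in the same anti-PD1 samples, and their part in these falls was not tested.

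Among the other adaptors, *Skap1*, the binding partner of *Fyb*, had the next largest difference. It was at 88.6 and 74.9 CPM in isotype, 59.9 and 54.0 CPM in anti-PD1, and 65.4 and 68.0 CPM in anti-Lag3. Both antibody groups lay below isotype and did not overlap each other. The log2 fold change of *Skap1* was −0.52 (SE 0.18, adjusted p = 0.252) with anti-PD1 and −0.29 (SE 0.18, adjusted p = 0.892) with anti-Lag3. *Lat*, the membrane adaptor that *Zap70* phosphorylates together with *Lcp2*, was at 216 and 203 CPM in isotype, 187 and 202 CPM in anti-PD1, and 210 and 192 CPM in anti-Lag3. Against isotype, anti-PD1 gave a log2 fold change of −0.11 (95% interval −0.36 to 0.15), a smaller difference than the one measured for *Lcp2*, although the 2 were not tested against each other. *Grb2*, *Nck1*, *Themis*, *Sh2d2a* and *Was*, which link the complex to Ras, actin and phosphatases, had log2 fold changes from −0.02 to 0.28 with anti-PD1, and none passed. *Grap2*, known as *Gads*, which carries *Lcp2* to *Lat*, was at 4.22 to 8.01 CPM, with a 95% interval of −1.50 to 0.76.

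The lipid and GTPase enzymes were level or variable. *Plcg1*, the phospholipase itself, was at 77.3 and 71.6 CPM in isotype, 72.8 and 76.9 CPM in anti-PD1, and 61.1 and 86.9 CPM in anti-Lag3, with a log2 fold change of 0.01 (95% interval −0.36 to 0.38) for anti-PD1 against isotype. *Rasgrp1*, the diacylglycerol-dependent activator of Ras, was at 33.5 and 56.8 CPM in isotype, 21.6 and 37.6 CPM in anti-PD1, and 40.5 and 45.3 CPM in anti-Lag3. Its replicates lay far apart, and anti-PD1 overlapped isotype. The log2 fold change of −0.60 (SE 0.26, adjusted p = 0.485) was no smaller than those of the genes that passed, and its SE was larger. *Sos1*, the other Ras activator, was at 26.4 and 54.3 CPM in isotype, 46.0 and 31.9 CPM in anti-PD1, and 33.7 and 40.9 CPM in anti-Lag3, with no order of groups. *Vav1*, the Rac activator, had a log2 fold change of −0.08 with anti-PD1.

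Of the 6 negative regulators of the pathway, 5 were below 0 with anti-PD1, with a median of −0.34. At an unadjusted p under 0.05 were 3 of the 6, 2 lower and 1 higher, and none passed edgeR's test. The diacylglycerol kinases *Dgka* and *Dgkz* remove the messenger that activates *Rasgrp1*. *Dgka* was at 116 and 119.5 CPM in isotype, 95.8 and 88.3 CPM in anti-PD1, and 122 and 111 CPM in anti-Lag3. *Dgkz* was at 121 and 147 CPM in isotype, 111 and 102 CPM in anti-PD1, and 127 and 145 CPM in anti-Lag3. Both were lowest in the anti-PD1 samples. Their log2 fold changes against isotype were −0.36 (SE 0.15, adjusted p = 0.471) and −0.33 (SE 0.15, adjusted p = 0.518). *Sla*, an adaptor that promotes loss of receptor complexes from the surface, was the exception, at 0.34 (SE 0.14, adjusted p = 0.460), with 167 and 140 CPM in isotype and 166 and 222 CPM in anti-PD1. These groups overlapped. *Sla* overlaps *Tg* on the other strand, which had 227 reads beside 2426 for *Sla*. *Sla2*, *Sit1* and *Lax1* had wide intervals, the narrowest running from −1.43 to 0.24.

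Calcium entry and calcineurin gave no member that passed in any comparison, and no member of this group had an unadjusted p under 0.05. With anti-PD1, 6 of the 7 genes were below 0 and the median was −0.17. With anti-Lag3 also 6 of the 7 were below 0, with a median of −0.15, and the isotype samples are shared by these values. *Itpr1*, a calcium channel of the stores, was at 54.2 and 44.3 CPM in isotype, 41.7 and 41.3 CPM in anti-PD1, and 41.7 and 32.3 CPM in anti-Lag3. Isotype was highest. Its log2 fold change was −0.24 (SE 0.22, adjusted p = 0.880) with anti-PD1 and −0.41 (SE 0.22, adjusted p = 0.847) with anti-Lag3. *Stim1*, the sensor of empty stores, and *Orai1*, the channel it opens, had log2 fold changes of 0.13 (95% interval −0.43 to 0.69) and −0.17 (95% interval −0.63 to 0.29) with anti-PD1.

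Calcineurin consists of a catalytic and a regulatory subunit. *Ppp3cb*, a catalytic subunit, was at 105 and 80.5 CPM in isotype, 73.3 and 87.5 CPM in anti-PD1, and 78.0 and 75.0 CPM in anti-Lag3. In log2 terms *Ppp3cb* differed from isotype by −0.20 (SE 0.17, adjusted p = 0.874) with anti-PD1 and −0.27 (SE 0.17, adjusted p = 0.894) with anti-Lag3. The anti-Lag3 samples lay just below isotype and the anti-PD1 samples overlapped it. The regulatory subunit *Ppp3r1* was at −0.02 (95% interval −0.31 to 0.27) with anti-PD1, and the catalytic subunit *Ppp3ca* at −0.06 (95% interval −0.69 to 0.58). *Rcan1*, an inhibitor of calcineurin whose gene is itself an NFAT target, was at 6.60 and 6.84 CPM in isotype, 6.23 and 4.50 CPM in anti-PD1, and 8.86 and 3.71 CPM in anti-Lag3, and its log2 fold change of −0.33 with anti-PD1 had a 95% interval of −1.50 to 0.84.

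The NFAT factors were split. *Nfatc1*, on chromosome 18, was at 209 and 244 CPM in isotype, 160 and 139 CPM in anti-PD1, and 184 and 222 CPM in anti-Lag3. The anti-PD1 samples were lowest, and the anti-Lag3 samples overlapped isotype. Its log2 fold change with anti-PD1 was −0.60 (SE 0.13, adjusted p = 0.00831, edgeR's quasi-likelihood test). With anti-Lag3 it was −0.16 (SE 0.13, adjusted p = 0.935), and between the antibodies −0.44 (SE 0.13, adjusted p = 0.231). Without isotype sample 2 or anti-PD1 sample 2, the adjusted p against isotype was 0.313 and 0.360, at −0.48 and −0.51. Between the antibodies, the log2 fold change of *Nfatc1* ran from −0.56 to −0.31 with a sample left out. In the other alternatives of that comparison, by edgeR, DESeq2 or limma-voom, adjusted p ran from 0.140 to 0.463. *Nfatc1* is also expressed in B cells, and the part of the lower B cell markers in its fall was not tested.

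*Nfatc3* lay on the other side. It was at 164 and 174 CPM in isotype, 201 and 196 CPM in anti-PD1, and 182 and 192 CPM in anti-Lag3, with no overlap of groups and anti-PD1 highest, and a log2 fold change of 0.23 (SE 0.13, adjusted p = 0.688). *Nfatc2* was at 17.4 and 27.8 CPM in isotype, 20.6 and 22.5 CPM in anti-PD1, and 21.9 and 34.5 CPM in anti-Lag3, with all groups overlapping. Of all reads on these 3 NFAT genes, *Nfatc1* took 53.6% and 54.8% in isotype, 42.0% and 38.9% in anti-PD1, and 47.4% and 49.5% in anti-Lag3. The anti-PD1 shares were lowest and their 95% Wilson intervals, up to 45.4%, lay below those of isotype, which began at 50.2%. The interval of anti-PD1 sample 1 overlapped that of anti-Lag3 sample 1, which began at 44.2%. This share too was chosen after its values were seen, and 0.333 is the smallest p that an exact permutation test of 2 against 2 samples can give. The counts are 3′ tags and do not separate the isoforms of *Nfatc1*.

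**Figure D3:**
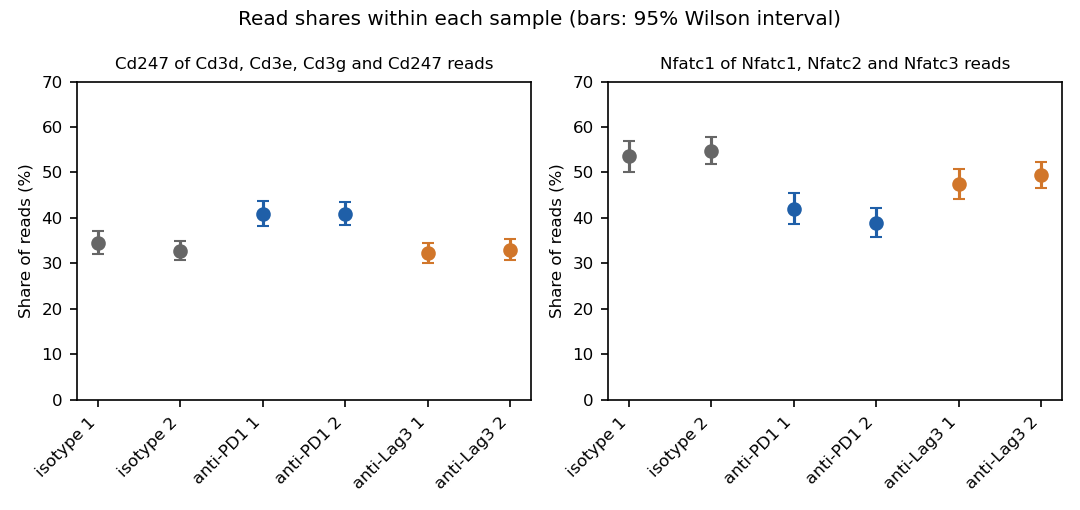
The vertical axes give the share in percent of *Cd247* among the reads of the 4 CD3 chain genes (left) and of *Nfatc1* among the reads of 3 NFAT genes (right), 1 point for each sample with its 95% Wilson interval. Both anti-PD1 samples stood at 41.0% and 40.9% on the left, above the other 4, and at 42.0% and 38.9% on the right, below the other 4.

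Against anti-Lag3, the anti-PD1 samples gave 29 members below 0 and 17 above, with a median of −0.05 beside 0.00 over all genes, of which 50.4% were below 0. At an unadjusted p under 0.05 stood 9 members, 8 lower and 1 higher, where 6.53% of all genes reached that level, 3.03% as lower and 3.5% as higher. The 1 that was higher was *Txk*, at 0.49 (SE 0.23, adjusted p = 0.740). The smallest adjusted p was that of *Lcp2*, at 0.200. In 14 members both anti-PD1 samples lay below both anti-Lag3 samples and in 4 above, where 35.9% of all genes had groups that did not overlap. *Cd3d* was among the members with the smallest p, at −0.39 (SE 0.13, adjusted p = 0.394). A difference between the antibodies in *Fyb*, *Lcp2* or *Nfatc1* was therefore not shown, although these genes passed with anti-PD1 and not with anti-Lag3 against isotype. A joint test for any difference among the 3 groups passed *Fyb*, *Lcp2* and *Nfatc1*, at adjusted p of 0.0146, 0.0399 and 0.0255 in edgeR, where 0.859% of all genes passed and 7.57% had an unadjusted p under 0.05.

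With anti-Lag3 against isotype, 22 members were above 0 and 24 below, where 49.9% of all genes were below. The median was −0.01, and for 41 members the 95% interval lay within 1 of 0. Only *Zap70* and *Cd2* had an unadjusted p under 0.05, 2 of 46 and both higher, where 5.96% of all genes did, 2.99% as higher and 2.97% as lower. In 6 members both anti-Lag3 samples lay above both isotype samples and in 7 below, where 34.6% of all genes had groups that did not overlap. That share of the members, 28.3%, was no higher than among all genes.

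A separate experiment of the study, on other samples, had compared a strong with a weak dose of the same peptide. It was a first stimulation sorted at 4 h for *Nr4a3*-Blue+Red− cells, whereas the present cells were re-challenged and Blue+Red+. Its list required a minimum fold change besides an adjusted p in DESeq2. On the list of genes that were lower at 4 h with the strong dose are 10 of the members: *Plcg1*, *Cd3e*, *Lck*, *Cd3g*, *Dgkz*, *Fyb*, *Dgka*, *Grap2*, *Cd4* and *Rasgrp1*. With anti-PD1 against isotype, 9 of these 10 were below 0, and their median was −0.36, beside −0.06 for the 36 other members tested and 0.00 for all genes. Of the 10, 1 passed the test (*Fyb*), and 6 had an unadjusted p under 0.05, all lower. In 7 both anti-PD1 samples lay below both isotype samples. Among all genes, 0.901% passed, 3.81% had such a p as lower, and 18.2% had groups that did not overlap as lower. Without isotype sample 2 the median was −0.28, and without isotype sample 1 it was −0.42. With anti-Lag3 against isotype, 6 of the 10 were below 0, the median was −0.01, and none had an unadjusted p under 0.05. Between anti-PD1 and anti-Lag3, 9 were below 0, with a median of −0.35. These 3 sets of values share samples and are not independent of each other. The 10 members were set apart with results of the present data known, and only the list of lower genes was used.

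**Figure D4:**
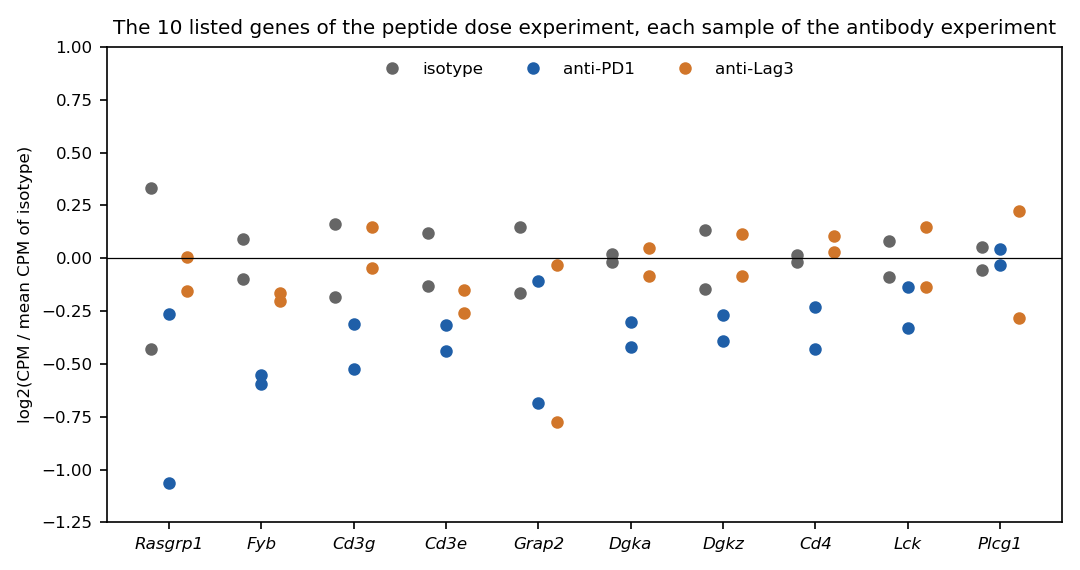
The vertical axis is log2 of the CPM of each sample over the mean CPM of isotype, for the 10 members on the list of genes lower with a strong peptide dose in a separate experiment, 1 point for each sample of the isotype, anti-PD1 and anti-Lag3 groups. The anti-PD1 points lie below 0 for all genes other than *Plcg1*, and below both isotype points for 7 of the 10.

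The rest of the pathway, given by 113 further tested genes of its NF-kB, Ras-MAPK, kinase and adaptor, calcium and NFAT, and target gene arms, moved in both directions with anti-PD1. The median of these 113 against isotype was 0.04. At an unadjusted p under 0.05 were 33 of them (29.2%), 19 higher and 14 lower, and 56.6% had groups that did not overlap. Among the members these shares were 32.6% and 54.3%, so such an excess over all genes was not particular to the module. Of the 113, 7 passed the test as higher and 2 as lower, beside the 0.631% and 0.269% of all genes. Those that rose were *Malt1* (log2 fold change 1.06), the protease of the NF-kB arm, *Cblb* (0.95), a ubiquitin ligase that restrains activation, *Cd5* (1.01), an inhibitory surface receptor, and *Icos* (0.58), a costimulatory receptor. Also higher were *Dusp5* (0.88), a phosphatase of ERK, *Atp2b4* (1.38), a calcium pump of the plasma membrane, and *Irf4* (0.51), a transcription factor switched on by receptor signals. *Ptpn6* (−0.97), the phosphatase SHP-1, and *Itpr2* (−0.77), a calcium channel of the stores, fell. Without anti-PD1 sample 2, 4 of these 9 passed (*Cblb*, *Dusp5*, *Malt1* and *Ptpn6*), and 5 did so without anti-PD1 sample 1 or without isotype sample 2. *Cblb* and *Ptpn6* passed with each of these samples left out. *Ptpn6* is expressed in B cells and macrophages too, and their part in its fall was not tested. With anti-Lag3 against isotype none of the 113 passed edgeR's test, DESeq2 or limma-voom, where 0.0421% of all genes passed by edgeR, and 16 had an unadjusted p under 0.05, 8 higher and 8 lower. These were 14.2% of the 113, beside 5.96% of all genes. Between the antibodies, *Cblb* (0.61, adjusted p = 0.0420) was higher with anti-PD1 and *Ptpn6* (−0.62, adjusted p = 0.0248) lower, and neither passed without anti-PD1 sample 1, anti-PD1 sample 2 or anti-Lag3 sample 2.

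The genes of the sort and of the antibody targets did not pass in any comparison. *Nr4a3*, whose reporter set the gate, was at 51.4 and 45.1 CPM in isotype, 29.7 and 29.4 CPM in anti-PD1, and 40.9 and 36.8 CPM in anti-Lag3. The groups were separate with anti-PD1 lowest, and the log2 fold change against isotype was −0.70 (SE 0.23, adjusted p = 0.195). By contrast, the paper reports more *Nr4a3*-Blue in responders with anti-PD1 than with isotype or anti-Lag3. That is a reporter protein read by flow cytometry, and the values here are of *Nr4a3* RNA. *Pdcd1*, which encodes PD1, was at 12.3 to 17.1 CPM and *Lag3* at 2.60 to 7.59 CPM over all samples, with log2 fold changes of −0.21 and 0.13 with anti-PD1.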

How the data were processed

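The authors sorted *Nr4a3*-Blue+Red+ CD4+ T cells, made QuantSeq 3′ libraries and, after trimming by Bbduk, used STAR 2.5.2a for alignment to GRCm38 and HTSeq to count reads per Ensembl gene. The deposited table holds these raw counts. The annotation release and the strand setting of the counting are not given in the sources used here. A deposited table of transformed values was not used. Labels give 2 samples per group. Suspensions of replicate mice were stained individually for the sort, and the labels name no mouse. The authors handled samples in batches and left out a further batch of 3 as an outlier in a principal component analysis, which is not analysed here. Whether sample numbers mark the batches is not stated, and same-numbered samples did not deviate together. The fit has no block.

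Genes with at least 10 reads over the 6 samples (11877) were tested with edgeR 4.0.16 in R 4.3.3 (TMM scaling, glmQLFit and glmQLFTest with the legacy default), all samples in a single fit without covariates, with a common dispersion of 0.0160 and Benjamini-Hochberg adjustment over all genes. Alternatives used DESeq2 1.42.0 and limma 3.58.1 (voom). The script was tested on simulated counts. GENCODE M21 named 47224 of 47643 identifiers. Promoters came from RefSeq.

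The members, roles and further gene lists were chosen with earlier results of these data known. Members were described singly if they passed in any comparison or in the joint test, were among the 6 smallest p of a comparison, had an SD over a mean above 0.3 in a group averaging 20 counts, or belonged to the receptor, CD3 or NFAT genes, *Lck*, *Rasgrp1* or *Rcan1*. This rule took 26 members, and values of others complete their role. No test was made of any list, and total counts limit the precision of low genes.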

Additional observations from a re-analysis of the deposited data

How the results depend on the processing

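The alternatives were DESeq2, limma-voom, edgeR on the compared samples alone or with its newer method (legacy off), 2 further scalings and 2 further filters, a threshold of 0.1, omission of *Gm42418* with the mitochondrial ribosomal RNA, a replicate block, and each sample left out in turn. With anti-PD1 against isotype, 3 members passed, all lower. The count in either direction became 0 to 4 with a sample left out, with 0 without anti-PD1 sample 2, and 2 to 4 otherwise. Wherever 4 passed, the added member was *Txk*, which was higher, and without isotype sample 1 the 2 that passed were *Nfatc1*, lower, and *Cd2*, higher. The 0 members between the antibodies became 0 to 1, and the 3 of the joint test 0 to 4, 1 by DESeq2 and 1 by the newer method. For anti-Lag3 against isotype the count was 0 under every alternative run. With a sample left out, the median log2 fold change of the members ran from −0.14 to −0.077 (anti-PD1 against isotype), −0.060 to 0.0092 (anti-Lag3 against isotype) and −0.10 to −0.024 (between the antibodies), and that of the dose list from −0.42 to −0.28, −0.11 to −0.0094 and −0.40 to −0.32. The other pathway genes that passed, to which the alternatives were extended after the data were seen, numbered 4 to 11, 0 to 1 and 0 to 2 with a sample left out. With anti-Lag3 against isotype they were 2 with the filter of 1 read, and between the antibodies 1 by DESeq2, 1 with filterByExpr and 0 by the newer method.

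Members near 0 changed sign with anti-PD1 against isotype. With a sample left out, their log2 fold changes ran from −0.49 to 0.55 (*Sos1*), −0.53 to 0.72 (*Sla2*), −0.36 to 0.31 (*Nfatc2*), −0.38 to 0.00415 (*Ppp3cb*), −0.16 to 0.031 (*Trbc1*) and −0.086 to 0.21 (*Trac*). *Sla2* was also at 0.00905 by limma-voom. The cause was not tested. With the replicate number as a block, 4 members passed with anti-PD1 against isotype, the same 3 and *Txk* (adjusted p = 0.0392), and *Sla2* was at 0.10. Samples with the same number did not deviate together (correlations over genes of 0.02, 0.02 and −0.01 between groups), and whether the number marks a sorting batch is not stated.

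Of all genes, 107 passed with anti-PD1 against isotype, but 69 by DESeq2, 175 with the 4 samples alone, 166 at a threshold of 0.1 and 53 to 185 with a sample left out. With anti-Lag3 against isotype, 5 became 1 by DESeq2, 20 with the filter of 1 read, 3 without the ribosomal RNA, 0 with filterByExpr, with the 4 samples alone or by the newer method, and 0 to 19 with a sample left out. The 36 between the antibodies became 16, 58 with the filter of 1 read and 7 to 59, and the 102 of the joint test 58 and 37 to 185, by DESeq2 and with a sample left out. A gene of few reads, such as *Tec*, *Sit1*, *Grap2* or *Rcan1*, was beyond what this depth resolves.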

Other observations

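In a few members of low level the samples of a group lay far apart. *Sla2*, an adaptor that opposes receptor signals, was at 4.71 and 11.3 CPM in isotype, 9.10 and 6.54 CPM in anti-PD1, and 3.37 and 23.0 CPM in anti-Lag3, so that the anti-Lag3 samples held both the lowest and the highest value. *Sla2* overlaps *Rab5if* on the other strand, which had 1562 reads beside 143 for *Sla2*. *Lax1*, a membrane adaptor that restrains the receptor, was at 14.1 and 15.3 CPM in isotype, 11.0 and 8.59 CPM in anti-PD1, and 18.1 and 7.80 CPM in anti-Lag3. In *Lax1* too the anti-Lag3 samples held the extremes. *Trat1* had 1 read in each of the isotype and anti-PD1 samples, and 3 and 0 in anti-Lag3.

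Shares of reads within pairs of isoenzymes, looked at after the share of *Nfatc1*, lay closer together than the latter. *Dgkz* took 51.0% and 55.1% of the reads of *Dgka* and *Dgkz* in isotype, 53.7% and 53.6% in anti-PD1, and 50.9% and 56.6% in anti-Lag3, with overlapping groups. *Ppp3cb* took 81.1% and 81.3% of the reads of the catalytic calcineurin genes *Ppp3ca* and *Ppp3cb* together in isotype, 81.0% and 78.7% in anti-PD1, and 81.9% and 76.5% in anti-Lag3. The anti-PD1 samples lay just below isotype, with 95% Wilson intervals that overlapped.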
